A study of Rattus norvegicus with 64 samples.

Results

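The 27 transcripts described here were raised in both liver and kidney 5 h after rats received acetaminophen, and they were chosen for that from 28420 transcripts. For each tissue, the median CPM (estimated counts scaled to a library total of 1000000) of the acetaminophen libraries plus 0.5 was divided by the vehicle median plus 0.5, and both folds had to be at least 1.5. A member also needed an acetaminophen median of at least 1 CPM in both tissues at 5 h and at least 7 of 8 acetaminophen libraries above the vehicle median in each. In addition, its vehicle livers could not differ much between 5 h and 10 h. The 5 h values are therefore a description of what was selected, and tests were kept to 10 h. Another 264 transcripts met the liver conditions and the limit on vehicle livers with a kidney fold under 1.5, with nothing asked of their kidney level or libraries. In the same way, 177 met the kidney conditions and that limit with a liver fold under 1.5. Members are numbered 1 to 27 by the geometric mean of their liver and kidney folds at 5 h.

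The study gave Sprague Dawley rats a single dose of 2 g/kg acetaminophen, or 6 ml/kg of the vehicle, which was 50% polyethylene glycol. Liver and kidney were collected 5 h or 10 h later, which gave 8 groups of 8 libraries: acetaminophen and vehicle livers at each time, and acetaminophen and vehicle kidneys at each time. Each combination of agent and time had 8 of the 32 rats, and the labels do not tie a liver to the kidney of the same rat. The labels give no sex or age, and the extraction text speaks of cultured cells although every sample is labelled as tissue.

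Acetaminophen is safe at ordinary doses. The liver oxidises part of it to a reactive product, which in overdose uses up glutathione and binds proteins. The kidney has related enzymes and can be injured as well. Both organs answer such chemical stress by changing the transcription of protective genes, some used by most cell types and others by one organ. The deposited transcripts carry Ensembl identifiers only, and 0 of the 28420 were matched to a gene symbol, so the members are described by level, length, response and shared reads, and no role is given to any of them.

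The liver libraries held 21467448 to 29496773 estimated counts and the kidney libraries 18039111 to 26148119 (32 each). Some libraries stood apart. The 4 livers that did were 10 h acetaminophen replicate 8, 5 h acetaminophen replicates 6 and 7, and 5 h vehicle replicate 6. In these the level, relative to the mean of all 32 livers, fell by 0.114 to 0.234 log2 units for each doubling of transcript length. The slopes of the other livers lay between -0.047 and 0.078. Kidney 5 h acetaminophen replicate 3 was the lowest of its group for 33.5% and kidney 10 h acetaminophen replicate 6 for 34.9% of 14852 transcripts with a mean of at least 1 CPM. As a check of tissue, 433 transcripts were taken that were at least 16 times higher in vehicle liver than in vehicle kidney at 10 h. The 10 h vehicle libraries chose this list, so the check is not independent for them. These transcripts held 46.1% to 51.6% of the counts of every liver library. They held 0.180% to 0.903% in acetaminophen kidneys at 5 h and 0.171% to 0.354% in vehicle kidneys at 5 h. The 0.903% belonged to acetaminophen replicate 8, and acetaminophen replicate 3, at 0.447%, was also above every vehicle kidney of 5 h.

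The conditions of the rule were applied in the order given here, and the number left by each depends on that order. A liver fold of 1.5 left 673 transcripts, the kidney fold left 92 of them, the limit on the vehicle livers left 63, the level left 53 and the count of libraries left 27. The members nearest the threshold in liver had folds of 1.50035, 1.50263 and 1.52333, and transcripts that failed on that value alone came as near as 1.47, 1.46 and 1.46. In kidney the nearest folds inside were 1.53, 1.53 and 1.54, and those outside were 1.49, 1.49 and 1.48. A total of 61 transcripts failed on the kidney fold alone and 17 on the liver fold alone. All 27 members passed the filter on low counts in both tissues.

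At 5 h the members' liver folds ran from 1.50035 to 5.01 with a median of 2.19, and their kidney folds from 1.53 to 5.00 with a median of 1.74. The liver fold was the larger one for 18 members and the kidney fold for 9. A fold of 2 or more was reached by 15 members in liver and by 4 in kidney, and by 2 members, the first and the second, in both. All 8 acetaminophen libraries lay above the vehicle median for 18 members in liver, for 15 in kidney and for 10 in both.

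Member 1 (ENSRNOT00000033119, 3387 bases long) was the only member with a fold above 4 in both tissues at 5 h. It had 28.8 to 227 CPM in acetaminophen livers (median 77.7), against 13.3 to 30.2 CPM in vehicle livers (median 16.7). In kidney it had 122 to 466 CPM with acetaminophen (median 251), against 36.1 to 88.5 CPM with vehicle (median 49.7). The kidney groups did not overlap, while in liver 1 acetaminophen library, replicate 6, lay among the vehicle libraries. The 3 highest acetaminophen livers, replicates 8, 3 and 1, had 227, 184 and 173 CPM, and the next had 86.5 CPM. Its TPM, a library-scaled level that also takes transcript length into account, had a median of 77.6 in acetaminophen kidneys and 19.7 in acetaminophen livers at 5 h.

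**Figure D1:**
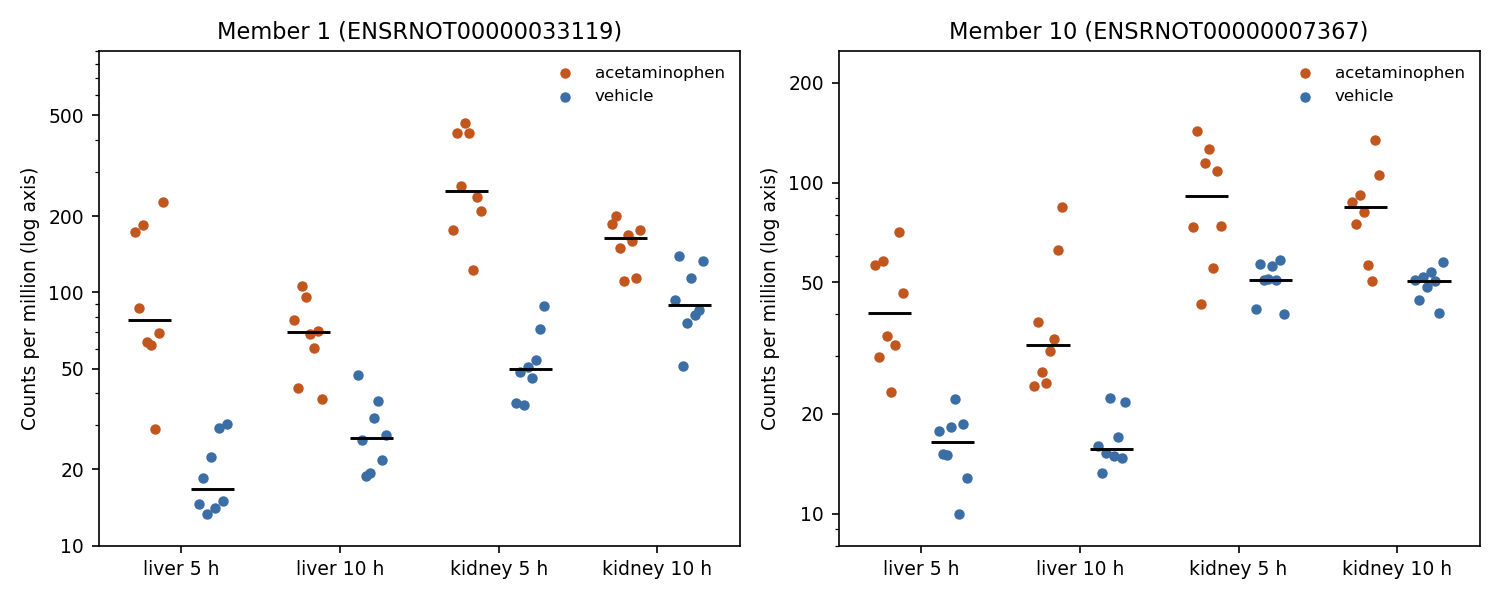
CPM (log axis) of member 1 and member 10 in each library, with acetaminophen left of vehicle in liver and kidney at 5 h and 10 h. Each point is 1 library (8 a group) and the bar is the group's median. The kidney medians of member 1 with acetaminophen were 251 CPM at 5 h and 164 CPM at 10 h, while those of member 10 were 91.0 and 84.4 CPM.

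At 10 h member 1 had 38.05 to 106 CPM in acetaminophen livers (median 69.6), against 18.8 to 47.3 CPM in vehicle livers (median 26.7). The groups overlapped in 2 acetaminophen livers, replicates 2 and 8. Its log2 change was 1.299 ± 0.33 (SE; edgeR quasi-likelihood test, adjusted p = 0.00642), and the call held in all 26 alternatives. In kidney it had 111 to 200 CPM with acetaminophen (median 164), against 51.3 to 139 CPM with vehicle (median 89.2). The kidney change of 0.72 ± 0.24 on the log2 scale did not pass the test (SE; adjusted p = 0.148, edgeR), nor did it in any of 26 alternatives (adjusted p between 0.0520 and 0.255). The liver effect minus the kidney effect was 0.54 ± 0.41 (SE; adjusted p = 0.541, edgeR), so a difference between the tissues was not shown for this member.

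Members 2 and 3 are short (186 and 382 bases) and shared reads with each other: their estimated counts were fractional in 63 of 64 libraries each, and their sum was whole in 44 of the 47 libraries checked for member 2 and in 44 of the 44 checked for member 3. They are therefore given as a sum. The pair had 824 to 2240.2 CPM in acetaminophen livers at 5 h (median 1416), against 170 to 553 CPM in vehicle livers (median 311). In kidney at 5 h it had 483 to 1304 CPM with acetaminophen (median 712), against 279 to 576 CPM with vehicle (median 366). The liver groups were apart and the kidney groups overlapped, with folds of 4.55 and 1.95. The effective length of member 2 was 20.1 bases, which makes its TPM very large (a median of 23930.2 in acetaminophen livers at 5 h) and unsuited to a comparison with other members.

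At 10 h the pair had 914 to 1841 CPM in acetaminophen livers (median 1352), against 311 to 578 CPM in vehicle livers (median 425). The groups did not overlap, and with the 2 transcripts merged before the test the log2 change was 1.68 ± 0.25 (SE; adjusted p = 1.88e-05, edgeR). In kidney the pair had 224 to 495 CPM with acetaminophen (median 360.3), against 204 to 477 CPM with vehicle (median 349). That is a log2 change of 0.07 ± 0.21 (SE; adjusted p = 0.942, edgeR). The liver effect was the larger by 1.58 ± 0.33 (SE; adjusted p = 0.0013, edgeR).

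Member 6, 389 bases long, was also abundant and also had fractional counts in most libraries (62 of 64). No single transcript was found with which these summed to whole reads, so reads moving between related transcripts cannot be told apart from a change in level. Member 6 had 1086 to 2701 CPM in acetaminophen livers at 5 h (median 1763), against 308 to 1061 CPM in vehicle livers (median 576). In kidney at 5 h it had 391 to 1150.4 CPM with acetaminophen (median 583), against 216 to 458 CPM with vehicle (median 328). Acetaminophen livers 8, 3, 1 and 7 were the 4 highest for members 2, 3 and 6 alike, in that order. At 10 h it had 1060.4 to 1827 CPM in acetaminophen livers (median 1554), against 477 to 747 CPM in vehicle livers (median 610.3), a log2 change of 1.27 ± 0.24 (SE; adjusted p = 3.56e-04, edgeR). In kidney its 10 h values overlapped widely, at 171 to 696 CPM with acetaminophen (median 255) and 118 to 440.0 CPM with vehicle (median 288), with a log2 change of 0.20 ± 0.28 (SE; adjusted p = 0.853, edgeR).

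Members 4 and 5 were, with the pair, the members whose 10 h effect differed between the tissues by the test given further on. Member 4 (1855 bases) had 309 to 762 CPM in acetaminophen livers at 5 h (median 654), against 28.3 to 184 CPM in vehicle livers (median 145). In kidney it was uneven in both groups at 5 h, at 25.9 to 168 CPM with acetaminophen (median 132) and 35.6 to 135 CPM with vehicle (median 85.9), and 7 of the 8 acetaminophen kidneys lay between 127 and 168 CPM. At 10 h it had 264 to 961 CPM in acetaminophen livers (median 357), against 108 to 331 CPM in vehicle livers (median 144). The 10 h kidneys had 27.2 to 241 CPM with acetaminophen (median 89.8), against 49.6 to 274 CPM with vehicle (median 133). Its log2 change at 10 h was 1.44 ± 0.32 in liver (SE; adjusted p = 0.00225, edgeR) and -0.40 ± 0.45 in kidney (SE; adjusted p = 0.801, edgeR). Its counts were fractional in 62 of 64 libraries and no single transcript was found with which they summed to whole reads, so reads moving between related transcripts cannot be told apart from a change in level.

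Member 5 (2259 bases) had whole counts throughout. It had 38.1 to 139 CPM in acetaminophen livers at 5 h (median 57.3), against 11.8 to 32.7 CPM in vehicle livers (median 16.1). In kidney at 5 h it had 62.5 to 138 CPM with acetaminophen (median 111), against 35.6 to 99.3 CPM with vehicle (median 58.7). At 10 h the liver values were 12.5 to 72.4 CPM with acetaminophen (median 20.7) and 7.86 to 23.1 CPM with vehicle (median 14.2). Its log2 change was then 0.95 ± 0.31 in liver (SE; adjusted p = 0.0353, edgeR) and -0.24 ± 0.18 in kidney (SE; adjusted p = 0.632, edgeR). The liver call was kept in 11 of 26 alternatives, and without acetaminophen replicate 7 the change was 0.61 (edgeR adjusted p = 0.174).

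The 27 members together held 0.542% to 0.930% of the counts of acetaminophen livers at 5 h (median 0.648%), against 0.205% to 0.379% in vehicle livers (median 0.265%). At 10 h they held 0.525% to 0.715% in acetaminophen livers (median 0.629%), against 0.261% to 0.335% in vehicle livers (median 0.288%). In kidney at 5 h they held 0.190% to 0.430% with acetaminophen (median 0.270%), against 0.122% to 0.207% with vehicle (median 0.143%), where 1 acetaminophen library overlapped. In kidney at 10 h the groups overlapped, at 0.163% to 0.204% with acetaminophen (median 0.184%) and 0.128% to 0.179% with vehicle (median 0.152%). The sum is weighted towards abundant members and does not describe each of the 27. Members 2, 3 and 6 alone held a median of 0.318% in acetaminophen livers at 5 h and 0.291% at 10 h. In vehicle livers they held 0.0892% and 0.101%. In bulk tissue a change in the number of cells of a type and a change in RNA per cell cannot be told apart.

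**Figure D2:**
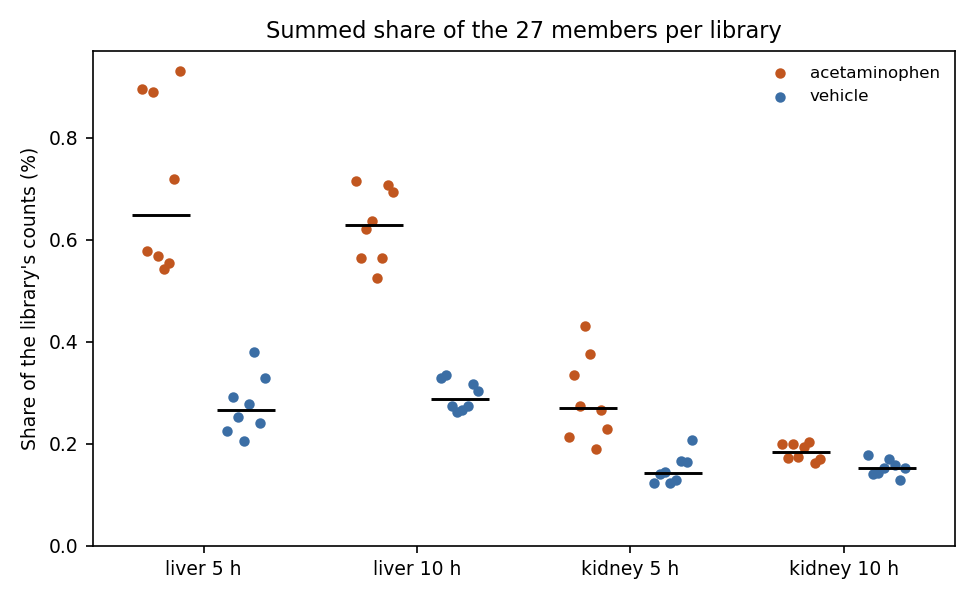
Share of each library's counts (%) held by the 27 members together, with acetaminophen left of vehicle in each tissue and time; points are libraries (8 a group) and bars are medians. The acetaminophen livers stayed at 0.525% or more at both times, while the 10 h kidneys, at 0.163% to 0.204%, overlapped the vehicle kidneys. Abundant members weigh most in this share.

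The first tested question was which members were still raised in liver at 10 h. Of 27 members, 14 were higher and 0 lower (edgeR's quasi-likelihood test, adjusted p under 0.05), where 9.74% of the 14943 transcripts tested were called higher and 6.08% lower. With transcripts that share reads merged, which joins members 2 and 3, the count was 13. The median log2 change was 0.69 over the members and 0.02 over all transcripts tested. The rule used the vehicle livers of 10 h for its limit on vehicle livers, but no 10 h acetaminophen library. Among the transcripts that met the liver conditions with a kidney fold under 1.5, 83 of 264 (31.4%) were higher and 3 lower, with a median of 0.43. No test set the members against these, and the comparisons in liver share no libraries between 5 h and 10 h.

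The 14 members called higher in liver at 10 h were 1, 2, 3, 4, 5, 6, 10, 11, 12, 13, 17, 20, 21 and 24. In all 26 alternatives 10 of them kept the call. The other 4 did not: member 5 kept it in 11, member 13 in 11, member 17 in 7 and member 20 in 24 of the 26. The 2 groups did not overlap for members 2, 3, 6, 10, 12 and 13, of which 2 and 3 share reads, a pattern held by 2.28% of the transcripts tested. The SE of the log2 change was largest for members 14 and 18, at 0.77 and 0.67, neither of which was called. In liver 11 members had a 5 h acetaminophen median under 3 CPM, and in kidney 1 did.

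By the fold of medians, members 21, 23 and 24 had a larger value in liver at 10 h than at 5 h, and member 11 had 2.58 and 2.60. By the fitted log2 changes this held for member 24 (0.69 and 0.55) and not for member 21 (0.96 and 1.02) or member 23 (1.33 and 3.51). Member 21 (1933 bases) had 829 to 2235 CPM in acetaminophen livers at 10 h (median 1574), against 664 to 1022 CPM in vehicle livers (median 789). Its log2 change was 0.96 ± 0.22 (SE; adjusted p = 0.00263, edgeR). The 5 h medians were 1505 CPM with acetaminophen and 832 CPM with vehicle. Member 11 (2231 bases) had 47.2 to 139 CPM in acetaminophen livers at 10 h (median 107), against 32.9 to 49.1 CPM in vehicle livers (median 40.98). Its log2 change was 1.32 ± 0.21 (SE; adjusted p = 3.93e-05, edgeR), and 1.24 ± 0.19 when it was merged with the transcript it shares reads with (SE; adjusted p = 2.73e-05, edgeR).

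Other members were nearer to the vehicle level in liver at 10 h than at 5 h. The fold of medians was below 1 for 4 members, and for 24 of 27 it was lower at 10 h than at 5 h. The members were selected on the 5 h fold, so this count is a description. Member 13 (1609 bases) had 48.6 to 115 CPM in acetaminophen livers at 5 h (median 74.0), against 19.4 to 36.7 CPM in vehicle livers (median 30.5). At 10 h it had 35.96 to 46.3 CPM with acetaminophen (median 38.8), against 26.3 to 34.2 CPM with vehicle (median 30.6). The groups were apart at both times, with a 10 h log2 change of 0.40 ± 0.14 (SE; adjusted p = 0.043, edgeR). Member 27 had a 10 h log2 change of -0.05 ± 0.21 (SE; adjusted p = 0.922, edgeR).

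**Figure D3:**
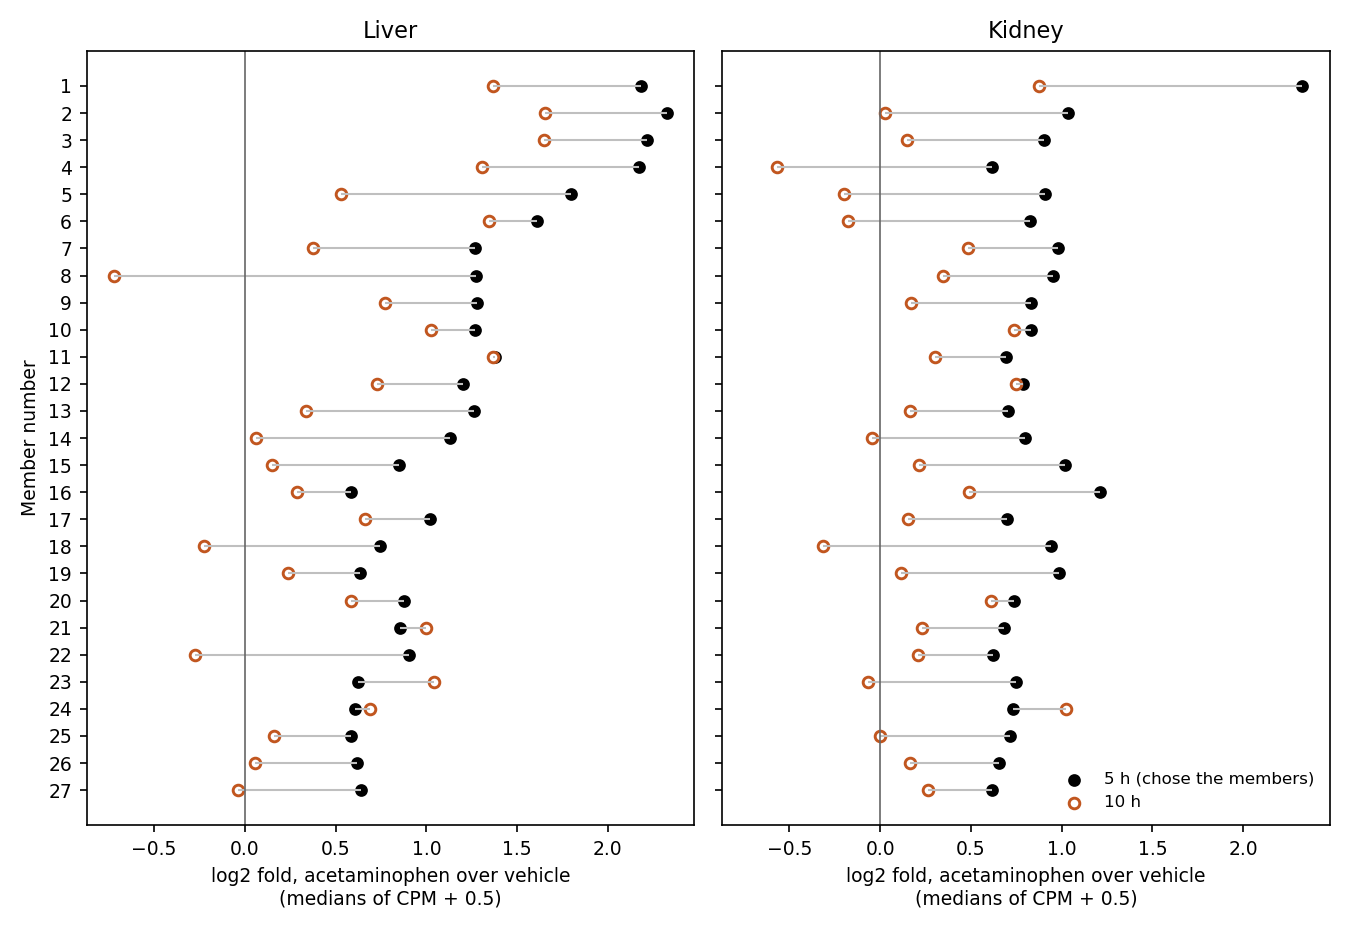
The log2 fold of acetaminophen over vehicle (medians of CPM plus 0.5, n = 8 a group) for each member in liver and kidney, filled at 5 h and open at 10 h. The 10 h fold lay below the 5 h fold for 24 members in liver and 26 in kidney; the 5 h folds chose the members.

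Although the fit took its spread from kidneys of both times, no step of the rule used kidneys at 10 h. There, 2 of 27 members were higher and 0 lower by edgeR's quasi-likelihood test at an adjusted p under 0.05, where 0.694% of 17284 transcripts were called higher and 0.648% lower. The 2 were members 10 and 24, and both were also called in liver. The members' median log2 change was 0.20 against -0.002 over all transcripts tested, and 21 of the 27 changes were positive, as were 8568 of the 17284 over all transcripts. An unadjusted p under 0.05 was reached by 10 members in kidney and by 2274 of the 17284 transcripts tested. Of the transcripts that met the kidney conditions with a liver fold under 1.5, 16 of 177 (9.04%) were higher and 1 lower, with a median of 0.31.

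Member 10 (ENSRNOT00000007367, 1185 bases, whole counts throughout) had the smallest p of the members higher in kidney at 10 h. It had 50.5 to 135 CPM in acetaminophen kidneys at 10 h (median 84.4), against 40.4 to 57.5 CPM in vehicle kidneys (median 50.5). Only the 2 lowest acetaminophen kidneys, replicates 6 and 5, lay within the vehicle range. The log2 change was 0.77 ± 0.18 (SE; adjusted p = 0.0248, edgeR). The call was lost on the authors' TPM with limma (adjusted p = 0.0589) and when 1 kidney library was left out, namely acetaminophen replicate 7, acetaminophen replicate 8 or vehicle replicate 7 (edgeR adjusted p = 0.0671, 0.0568 and 0.0526).

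In liver at 10 h member 10 had 24.2 to 84.5 CPM with acetaminophen (median 32.4), against 13.2 to 22.3 CPM with vehicle (median 15.6). The groups did not overlap, and the log2 change was 1.27 ± 0.24 (SE; adjusted p = 4.35e-04, edgeR). The highest liver, acetaminophen replicate 8, is one of the 4 whose levels fell with transcript length, and without those 4 libraries the change was 0.99 (edgeR adjusted p = 7.91e-04). At 5 h it had 23.3 to 70.7 CPM in acetaminophen livers (median 40.4), against 9.98 to 22.2 CPM in vehicle livers (median 16.4). Its kidneys at 5 h had 42.8 to 143 CPM with acetaminophen (median 91.0), against 40.1 to 58.2 CPM with vehicle (median 50.9). The lowest of those acetaminophen kidneys was replicate 3. The liver effect minus the kidney effect at 10 h was 0.49 ± 0.31 (SE; adjusted p = 0.425, edgeR).

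Member 24 (1240 bases) was the member whose kidney fold of medians was higher at 10 h than at 5 h, 2.04 against 1.66. By the fitted log2 changes this held for member 24 (0.96 and 0.41) and, narrowly, for member 11 (0.52 and 0.50). Member 24 had 68.9 to 170 CPM in acetaminophen kidneys at 10 h (median 116), against 44.5 to 76.8 CPM in vehicle kidneys (median 56.7). The log2 change was 0.96 ± 0.22 (SE; adjusted p = 0.0259, edgeR), and the call was lost when any 1 of 5 kidney libraries was left out, acetaminophen replicates 1 and 8 and vehicle replicates 3, 6 and 8 (edgeR adjusted p between 0.0512 and 0.0683). At 5 h the kidneys had 57.6 to 97.7 CPM with acetaminophen (median 73.5), against 36.03 to 147 CPM with vehicle (median 44.1). The 147 CPM belonged to vehicle replicate 8, and the next vehicle kidney had 66.03 CPM. In liver at 10 h it had 645 to 1199 CPM with acetaminophen (median 968), against 477 to 698 CPM with vehicle (median 599), a log2 change of 0.69 ± 0.16 (SE; adjusted p = 0.00311, edgeR).

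Member 11 was the 1 member whose kidney groups did not overlap at 10 h, which held for 0.197% of the transcripts tested. It had 137 to 245 CPM in acetaminophen kidneys (median 146), against 95.9 to 131 CPM in vehicle kidneys (median 118). Its log2 change of 0.52 ± 0.18 did not pass the test (SE; adjusted p = 0.173, edgeR). Limma voom with library weights gave an adjusted p of 0.0455, and edgeR on the 10 h kidneys alone gave 0.0357. Member 12 was called by the same 2 alternatives, with 7.10 to 12.3 CPM in acetaminophen kidneys at 10 h (median 10.9), against 5.37 to 7.91 CPM in vehicle kidneys (median 6.28).

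**Figure D4:**
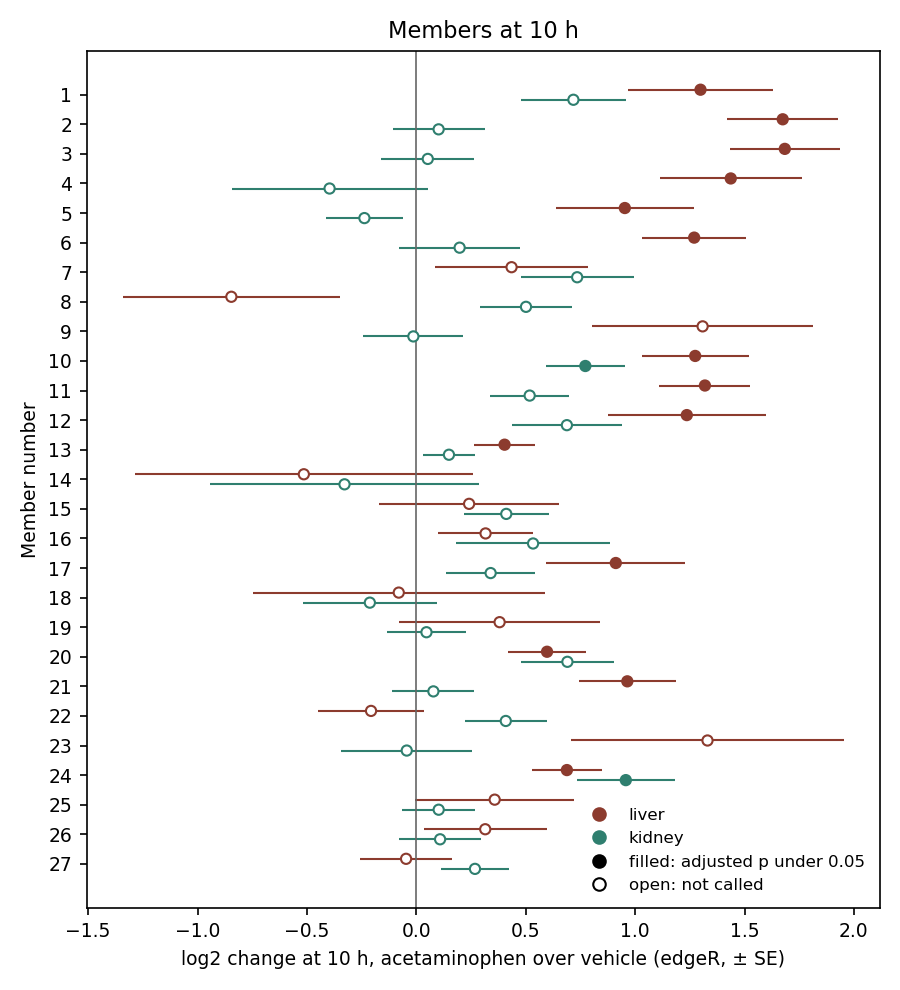
The log2 change at 10 h of each member (edgeR, acetaminophen over vehicle, bars ± SE) in liver and kidney, filled where the adjusted p was under 0.05. In liver 14 members were called, with changes up to 1.68, and in kidney members 10 and 24.

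The effect at 10 h was then compared between the tissues in 1 fit of all 64 libraries. The liver effect was more positive than the kidney effect for 4 members (2, 3, 4 and 5) and more negative for 0 (edgeR, adjusted p under 0.05), where 6.5% of 18016 transcripts were called in either direction. The difference was 1.54 ± 0.34 for member 2 (SE; adjusted p = 0.00182, edgeR) and 1.60 ± 0.34 for member 3 (SE; adjusted p = 0.0013, edgeR), and these calls held in all 42 alternatives. For member 4 it was 1.80 ± 0.56 (SE; adjusted p = 0.0401, edgeR) and held in 25 of 42, and for member 5 it was 1.17 ± 0.37 (SE; adjusted p = 0.0429, edgeR) and held in 20. The count became 6 without liver acetaminophen replicate 5 and 2 without liver acetaminophen replicate 2, liver vehicle replicate 2, 3, 4 or 8, kidney acetaminophen replicate 4, or kidney vehicle replicate 1 or 6. Since members 2 and 3 share reads, the merged fit counts 3 differences, not 4. The other 23 members did not pass this test, which does not show that their effects were alike.

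Member 8 (2269 bases) had changes of opposite sign in the 2 tissues at 10 h, neither of which passed the test. It had 0.466 to 1.752 CPM in acetaminophen livers (median 0.797), against 0.345 to 3.94 CPM in vehicle livers (median 1.64). In kidney it had 54.2 to 194 CPM with acetaminophen (median 81.6), against 45.5 to 109 CPM with vehicle (median 63.9). The liver effect minus the kidney effect was -1.41 ± 0.49 (SE; adjusted p = 0.0679, edgeR). That difference was called in 6 of 42 alternatives: without liver acetaminophen replicate 1, liver vehicle replicate 1 or 5, or kidney vehicle replicate 7, without the 6 libraries that stood apart, and without the 5 h libraries numbered 65 to 68 (liver acetaminophen replicate 8, liver vehicle replicates 7 and 8, and kidney acetaminophen replicate 8) (edgeR adjusted p between 0.0272 and 0.049). Member 8 shares reads with a transcript of 2082 bases that is no member: their sum was whole in 56 of 56 libraries with fractional counts. At 5 h that partner had a liver fold of 0.307, and the liver fold of the sum was 1.60, against 2.41 for the member alone. With the 2 merged, the difference between the tissues was -0.93 ± 0.32 (SE; adjusted p = 0.0635, edgeR).

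Members 9, 11 and 19 also shared reads with 1 transcript each that is no member, and their sums were whole in 57 of 57, 62 of 62 and 59 of 59 libraries with fractional counts. At 5 h the sums had liver folds of 2.75, 2.47 and 1.49 and kidney folds of 1.61, 1.63 and 1.99 for members 9, 11 and 19 in that order. With its partner, member 19 is just under the liver threshold. In all, 14 of 27 members (51.9%) had fractional counts in at least 1 library, against 42.6% of the 14852 transcripts with a mean of at least 1 CPM. The other 13 were whole in all 64 libraries (tolerance 1e-06). No single partner was found for members 4, 6, 7, 14, 18, 20 and 26, with fractional counts in 61 to 64 libraries, or for member 17, with 32. For these too, reads moving between related transcripts cannot be told apart from a change in level.

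The members' lengths ran from 186 to 5129 bases with a median of 2231. The median was 1504 over all transcripts and 2050.0 over those with a mean of at least 1 CPM. Per length, in vehicle libraries of 10 h, 19 members had the higher median TPM in kidney and 8 in liver, and 10 members differed by less than 2 times between the tissues. Member 21 was 10.9 times higher in vehicle liver, at a median of 363 TPM, against 33.3 TPM in vehicle kidney. Its highest acetaminophen kidneys at 5 h were replicates 8 and 3 (132 and 125 CPM), which also held the largest shares of liver-high transcripts. Members 20 and 24 were also higher in vehicle liver. Member 24 was highest in replicates 1 and 8 (97.7 and 87.6 CPM), and member 20 in replicates 5, 2 and 8 (3.53, 2.92 and 2.83 CPM). Replicate 3 was outside the 4 highest for both, at 65.6 and 2.32 CPM. Among vehicle kidneys of 5 h, replicate 8 held the largest share of liver-high transcripts (0.354%). It had the most of member 24 (147 CPM) but not of member 21 (44.5 CPM) or member 20 (1.43 CPM). A link was not tested. Members 8, 12 and 15 were over 10 times higher in vehicle kidney. Member 15 had a median of 0.122 TPM in vehicle liver at 10 h, against 5.60 TPM in vehicle kidney. The members thus include transcripts near the limit of detection in liver.

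The members' levels at 5 h were uneven between libraries, and the part of the animal and the part of the library cannot be told apart. In acetaminophen kidneys, replicate 6 was the lowest of the 8 for 15 of 27 members, though it was the lowest for 8.64% of the 14852 transcripts with a mean of at least 1 CPM. Replicates 2, 4 and 5 were among the 4 highest for 23, 23 and 21 members, and for 57.2%, 43.4% and 50.9% of those transcripts. Of the 12 members with 7 of 8 acetaminophen kidneys above the vehicle median, replicate 6 was the exception for 6 of them and replicate 3 for 3. In acetaminophen livers, replicates 1, 8 and 3 were among the 4 highest for 22, 21 and 19 members and for 41.9%, 49.4% and 44.6% of those transcripts, and replicate 6 was the lowest for 11, as it was for 17.5% of the 14852 transcripts. Liver replicate 6 is also one of the livers whose level fell with transcript length. Replicate numbers do not link a liver to a kidney.

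Member 23 (1394 bases) showed this most sharply. In acetaminophen livers at 5 h, replicates 1, 8 and 3 had 24.7, 23.9 and 10.3 CPM, and the other 5 had 0.477 to 1.38 CPM, against 0.271 to 1.33 CPM in the 8 vehicle livers. In acetaminophen kidneys at 5 h, replicates 2, 5 and 4 had 40.8, 32.8 and 14.8 CPM, and the other 5 had 4.82 to 10.6 CPM, against 3.72 to 7.30 CPM in vehicle kidneys. Its fold of medians in liver, 1.54, does not show the 3 high livers. At 10 h no library of either tissue was above 9.83 CPM, and neither change passed the test (edgeR adjusted p = 0.155 in liver and 0.979 in kidney). The liver change was called in 2 of 26 alternatives. These were edgeR on the 10 h livers alone (log2 change 1.305, adjusted p = 0.00438) and limma voom with library weights (adjusted p = 0.04275). The liver effect minus the kidney effect was called in 1 of 42, the 10 h libraries alone (edgeR adjusted p = 0.00618).

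**Figure D5:**
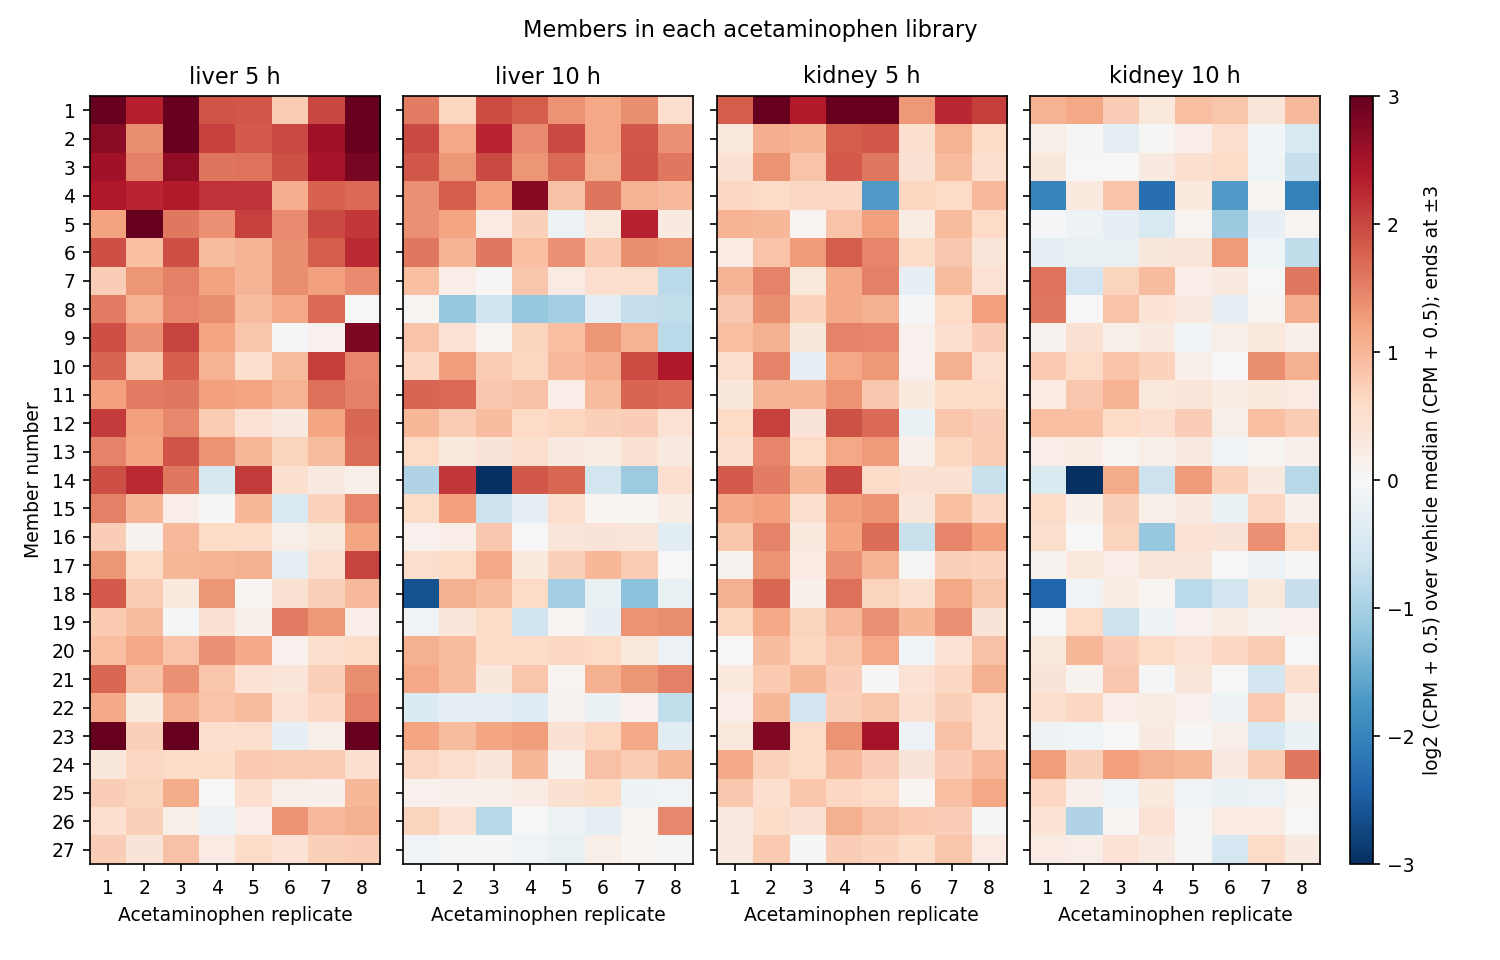
Each member in each acetaminophen library, as log2 of its CPM plus 0.5 over the vehicle median plus 0.5 of the same tissue and time (red above, blue below, colours end at ±3); rows are members and columns are the 8 replicates. At 5 h, liver replicates 1, 3 and 8 and kidney replicates 2, 4 and 5 are the darkest red for many members, and kidney replicate 6 is the palest.

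The vehicle libraries also varied. Vehicle replicate 8 was the highest of its group for 11 of 27 members in liver at 5 h and for 11 in kidney at 5 h, and for 19.3% and 10.1% of the 14852 transcripts. At 10 h the acetaminophen kidney that was lowest most often was replicate 6, for 11 members, and this is the library that was lowest for 34.9% of all transcripts. In liver at 10 h acetaminophen replicate 8 was the lowest for 9 members and for 26.6% of the 14852 transcripts, which is also the liver with the steepest slope on length. Acetaminophen replicate 1 was the lowest liver for more transcripts, 32.3%, and for 2 members. Without the liver libraries that stood apart, 15 members were called higher in liver at 10 h. Without the kidney libraries that stood apart, 2 were called higher in kidney. Liver 10 h acetaminophen replicate 1 is not among these, and without it alone 10 members were called higher in liver. The 5 h vehicle replicates 8 were not left out singly in the tests.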

How the data were processed

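RNA from 64 liver and kidney libraries was sequenced as single-end 75-base reads from stranded poly-A libraries, per the labels' protocols. Transcripts were quantified with kallisto 0.42.4, and the build was Rnor 6.0, per the submitters' processing notes. Each deposited table holds, per the file headers, estimated counts per transcript, which are not normalized, and TPM, scaled by the authors to length and library size. Reads that match several transcripts are divided by kallisto's model. CPM are estimated counts over the library's total. Counts were rounded, and R 4.3.3 ran the main test with edgeR 4.0.16 (filterByExpr, TMM, glmQLFTest, two-sided), with the 32 libraries of a tissue in 4 groups, or all 64 in 8 groups for the difference between tissues. Adjusted p-values are Benjamini-Hochberg over all transcripts tested. DESeq2 1.42.0, limma 3.58.1 and other settings were alternatives. The script was tested on simulated data.

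The members and lists were chosen with earlier results of these data known. Named by identifier are the member with the highest geometric mean fold at 5 h and the one with the smallest p among those higher in kidney at 10 h; the same rule for lower members found none. The planned gene lists and cell type markers need gene symbols and were not run. Shared reads were looked for where 2 fractional counts summed to a whole number, within the rounding of the deposited values plus 0.001, in at least 0.9 of the libraries where that rounding was at most 0.01. Replicate numbers are in accession order and pair nothing.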

Additional observations from a re-analysis of the deposited data

Results flagged for a closer look

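For 4 members the effect of acetaminophen at 10 h differed between liver and kidney by a test of the difference itself (edgeR's quasi-likelihood test, adjusted p under 0.05). On the log2 scale the liver effect exceeded the kidney effect by 1.54 for member 2, 1.60 for member 3, 1.80 for member 4 and 1.17 for member 5. Members 2 and 3 share reads and count as 1. Among 32 groups of 8 libraries examined for members 1 and 10, the sum of members 2 and 3 and the sum of all members, no library lay far from the other 7, where chance gives about 1 such group in 20.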

How the results depend on the processing

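The 14 liver calls at 10 h moved between 10 and 15 over all settings, 10 to 14 when 1 library was left out. The 2 kidney calls became 1 with limma on log2(TPM + 1) or log2(TPM + 0.1), 5 with limma voom and library weights, 4 on the 10 h kidneys alone, and 0 to 2 without 1 library (0 without acetaminophen replicate 8, 1 without any one of acetaminophen replicates 1 and 7 and vehicle replicates 3, 6, 7 and 8). The 4 tissue differences became 2 without the filter and 2 to 6 without 1 library; they were 6 without liver acetaminophen replicate 5 and 2 without liver acetaminophen replicate 2, liver vehicle replicate 2, 3, 4 or 8, kidney vehicle replicate 1 or 6, or kidney acetaminophen replicate 4. Over all transcripts the kidney calls at 10 h numbered 232, with 1065 by voom, 423 by DESeq2, 407 on the 10 h kidneys alone and 504 without the 2 kidney libraries that stood apart. On TPM 26.5% of kidney calls were higher, against 51.7%, and 74.2% of tissue differences were positive, against 57.9%. The rule found 15 members on TPM (14 shared), 32 on TMM-scaled CPM (21 shared), 40 without the limit on vehicle livers, 67 at a fold of 1.3, 2 at a fold of 2, 46 without the 6 libraries that stood apart (22 shared), 35 without the libraries numbered 65 to 68 (21 shared) and 23 to 36 without 1 library. The causes were not tested. No paired analysis was possible because replicate numbers are in accession order. Merging read-sharing transcripts and leaving out libraries that stood apart were chosen after seeing the data. The SE of a liver change at 10 h ran to 0.77 for member 14, and its relation to depth was not tested.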
